A study of Mus musculus with 12 samples.

Results

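The genes of the subcortical maternal complex, Nlrp5, Ooep, Padi6, Khdc3, Tle6, Nlrp2 and Zbed3, were taken by name from the table of 24255 genes. All 7 were in the table, and all 7 were among the 11233 genes that reached 1 FPKM, fragments scaled to transcript length and to the mapped fragments of the library, in at least 1 library. RNA-Seq was done with Smart-seq2, which amplifies full-length cDNA from few cells, on 12 libraries of 20 germinal vesicle (GV)-stage oocytes each, from C57BL/6 females aged 3 weeks and primed with 5 IU of PMSG 46 h earlier. There were 3 libraries in each of 4 groups. The wild-type group (WT) has its genotype given only as WT. The mutant group (MUT) carried D166G, a recessive missense mutation of Dpagt1 induced by ethylnitrosourea and present in every cell of the body. The GcKO group was Dpagt1F/F Gdf9CRE/+, in which the floxed gene is deleted by a Cre that the Gdf9 promoter drives in oocytes. The AmcKO group was Dpagt1F/F Amhr2CRE/+, in which the Cre is driven in granulosa cells, so that the oocyte itself should keep its Dpagt1. The labels name no floxed control without Cre and no Cre control without the floxed gene. They do not say whether WT carried the floxed allele.

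Dpagt1 encodes the enzyme that starts the assembly of the sugar chain for protein N-glycosylation. The subcortical maternal complex is a protein assembly that forms in the growing oocyte under its cortex and is passed on to the embryo, which cannot get through early cleavage without it. NLRP5 (also called MATER), OOEP (FLOPED) and TLE6 form its core, KHDC3 (FILIA) attaches to that core, and PADI6, NLRP2 and ZBED3 are associated with it. Because an oocyte nearing full size stops transcription, its transcripts at the GV stage are a store that was built up during growth.

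Dpagt1 itself was listed at 0 FPKM in the 3 WT and the 3 AmcKO libraries. Its values were 0.878, 0.408 and 0.985 FPKM in MUT and 0, 0.366 and 0 FPKM in GcKO. The gene stayed below the minimum of 1 FPKM in all 12 libraries, so its level checks none of the labels and was not tested.

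The libraries of the groups differed in several ways that bear on every value below. The FPKM of all genes together came to 1167362 to 1226005 for WT and 883256 to 1107925 for AmcKO, but only 589617 to 611597 for MUT and 482314 to 684212 for GcKO. Between 9359 and 9622 genes were above 0 in WT, against 10399 to 10921 in AmcKO, 11208 to 11467 in MUT and 10733 to 11608 in GcKO. The value of a single fragment, read from the smallest steps between low FPKM values and set to 1 in MUT replicate 2, was 2.28 to 2.66 in WT and 0.901 to 1.51 in the other 9 libraries, so low values are coarser in WT. Replicate labels run from 1 to 3 in MUT and GcKO and from 4 to 6 in WT and AmcKO. Had the 2 number series been handled as batches, batch and genotype would coincide for MUT and GcKO, and they cannot be told apart. All 10 oocyte markers were present in every group. They summed to 18527 to 19830 FPKM in WT, 16031 to 16871 in AmcKO, 10632 to 12627 in MUT and 9274 to 12663 in GcKO. By limma 4 of the 10 were called lower than in WT in MUT, 3 in GcKO and 0 in AmcKO, and 0 higher. Of all genes, 11.3%, 11.4% and 0.116% were called lower in the same order. Of 15 granulosa cell markers, Amh, Amhr2 and Foxl2 were at 0 in all 12 libraries. All 15 summed to 108 to 152 FPKM in WT, 125 to 149 in AmcKO, 101 to 146 in GcKO and 126 to 131 in MUT, so the groups overlapped. Most of this was Serpine2 and Cyp19a1, of which Cyp19a1 ran from 15.1 to 20.1 FPKM in WT and from 8.88 to 13.4 in MUT. The other 13, split off after the values had been seen, summed to 2.53 to 3.93 FPKM in WT, 1.82 to 3.45 in AmcKO, 7.33 to 8.40 in GcKO and 8.34 to 18.2 in MUT. Of 8 granulosa cell markers tested, 3 (Gja1, Hsd17b1 and Inha) were called higher in MUT than in WT by limma and 0 in GcKO, against 9.46% and 8.71% of all genes. The part of these markers in the results was not tested. The 5 theca cell markers summed to at most 0.850 FPKM and the 5 blood and immune cell markers to at most 2.91 FPKM in any library.

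The 7 genes lie on 5 chromosomes of GRCm38 (mm10), and all are annotated as protein coding in GENCODE M21. Ooep is on chromosome 9 from 78376109 to 78378725 on the reverse strand, and Khdc3 is on the same chromosome from 73101836 to 73104438 on the forward strand. Nlrp5 (7, from 23385889 to 23441922, forward) and Nlrp2 (7, from 5298547 to 5351035, reverse) share chromosome 7. Padi6 is on chromosome 4 from 140727355 to 140742643 on the reverse strand, Tle6 on chromosome 10 from 81590904 to 81601073 on the reverse strand and Zbed3 on chromosome 13 from 95323612 to 95337841 on the forward strand. The first bases of Nlrp2 overlap Gm5065 on the other strand, which reached 994 FPKM. The deposited span of Nlrp2, from 5298545 to 5360682, takes in all of Gm5065. The sources used here do not say that fragments were counted by strand, so Nlrp2 values may hold fragments of Gm5065. Khdc3 overlaps Gm20509 on its own strand, a gene model that is not a row of the table.

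The 250 bases before the RefSeq start of each gene (GRCm38.p6) were searched on both strands for CANNTG. These are the core letters of an E-box, to which basic helix-loop-helix factors such as the oocyte factor FIGLA bind. Nlrp5 and Tle6 had 2 RefSeq starts each and Zbed3 had 3, of which the one nearest the deposited start was used. CANNTG was present once in Ooep, 2 times each in Nlrp5, Padi6 and Tle6, 3 times in Zbed3, 5 times in Khdc3 and not at all in the window of Nlrp2. The start used for Nlrp2 lay 9647 bases from the deposited one, against at most 2 bases for the other genes. It is a common word, held by 66.2% of 32851 mouse promoter windows of the same length, with a median of 1 match. In Ooep, Padi6 and Khdc3 a match began at the same place, 78 bases before the start, as in 0.484% of all windows. This position was picked out after the matches had been seen, and it depends on the start used. By the GENCODE coordinates above, the Khdc3 window lies wholly within the gene. Parts of the Tle6 and Ooep windows do too, with the Ooep match at 78 bases. TAATTA or TAATTG, letters bound by homeobox factors such as NOBOX, were found once each in Nlrp5 and Ooep and in 11.3% of all windows. The windows of the genes with the shared position, and of Zbed3 for comparison, are shown 5′ to 3′ on the strand of the gene, ending at the base before the start, with every CANNTG in capitals.
Ooep, chr9:78378589-78378838, reverse strand: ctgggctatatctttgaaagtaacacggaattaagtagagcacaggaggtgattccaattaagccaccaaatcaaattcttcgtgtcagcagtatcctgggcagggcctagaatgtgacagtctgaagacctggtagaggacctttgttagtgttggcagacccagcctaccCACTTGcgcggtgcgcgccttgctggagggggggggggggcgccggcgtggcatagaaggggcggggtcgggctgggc
Khdc3, chr9:73102148-73102397, forward strand: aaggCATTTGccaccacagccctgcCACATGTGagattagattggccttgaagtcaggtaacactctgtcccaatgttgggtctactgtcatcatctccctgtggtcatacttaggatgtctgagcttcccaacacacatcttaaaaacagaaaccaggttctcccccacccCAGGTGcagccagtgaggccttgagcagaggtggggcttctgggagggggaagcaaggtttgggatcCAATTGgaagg
Padi6, chr4:140742644-140742893, reverse strand: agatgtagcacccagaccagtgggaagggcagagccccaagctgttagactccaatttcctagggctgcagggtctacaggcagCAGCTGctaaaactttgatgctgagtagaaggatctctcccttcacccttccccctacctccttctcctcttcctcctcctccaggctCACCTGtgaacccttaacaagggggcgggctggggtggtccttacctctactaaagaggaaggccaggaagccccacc
Zbed3, chr13:95323355-95323604, forward strand: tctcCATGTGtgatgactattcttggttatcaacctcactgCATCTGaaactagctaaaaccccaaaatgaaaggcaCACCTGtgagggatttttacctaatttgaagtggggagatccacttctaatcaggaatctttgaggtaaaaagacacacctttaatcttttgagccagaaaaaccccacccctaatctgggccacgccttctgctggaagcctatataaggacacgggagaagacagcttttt
In the deposited FPKM Ooep and Khdc3 were lower in MUT and GcKO than in WT, and Padi6, which has a match at the same position, was not, as described below. A link between the matches and the levels was not tested.

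In WT oocytes the transcripts of the complex were far from equal. Ooep and Zbed3 were the most abundant, at 6502 ± 607 and 2677 ± 620 FPKM (SD, n = 3), and were among the 108 highest genes of each WT library. Khdc3 followed with 715 ± 41.0 FPKM, Nlrp5 with 191 ± 34.6 and Padi6 with 166 ± 19.5 FPKM. Tle6, at 69.5 ± 10.1 FPKM, and Nlrp2, at 45.7 ± 2.28 FPKM, were the lowest. FPKM is a level per transcript length, so these levels can be compared between genes. In WT every step of this order separated all 3 values from those of the next gene, except the step from Nlrp5 to Padi6, where the values overlapped. The Ooep transcript was thus present at many times the level of Nlrp5 and Tle6, whose proteins share the core with it.

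**Figure D1:**
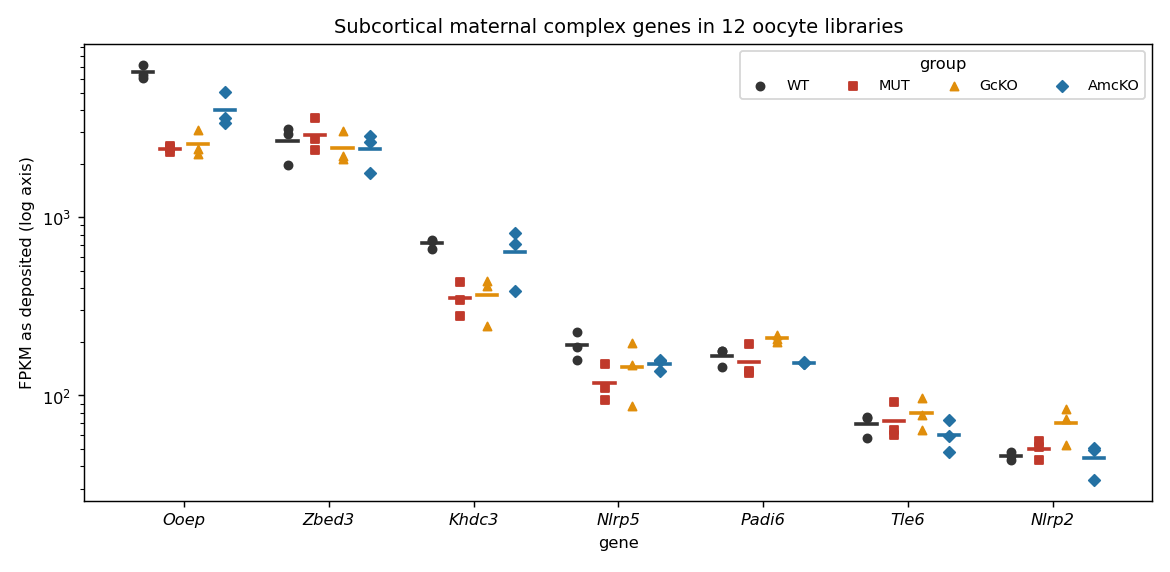
FPKM as deposited (vertical log axis) of the 7 genes in the 12 oocyte libraries. Each point is a library and each bar the mean of a group of 3; the MUT and GcKO values of Ooep and Khdc3 lie below all WT values, while those of Zbed3 and Tle6 overlap WT.

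Of the core genes, Ooep, which encodes a small protein with a KH-type domain, was lower in MUT and GcKO in the deposited FPKM. Its values were 6313, 6012 and 7181 FPKM in WT and 2500, 2324 and 2435 FPKM in MUT. They were 2256, 2406 and 3103 FPKM in GcKO and 3617, 5019 and 3368 FPKM in AmcKO. All 9 libraries with altered Dpagt1 lay below the lowest WT library, and the 3 AmcKO libraries lay between WT and the other 2 groups without overlap with either, where 14.4% of all genes tested were wholly lower in MUT than in AmcKO and 11.6% in GcKO. The level was 2.68-fold lower in MUT than in WT (log2 fold change -1.42, SE 0.18, adjusted p = 0.000151 by limma) and 2.53-fold lower in GcKO (-1.34, SE 0.18, adjusted p = 0.000226). Scaling every library to the same FPKM sum reduced this to -0.42 and -0.30, still called, and quantile normalization to -0.21 and -0.13 and cyclic loess to -0.12 and 0.0016, neither of which was called. In AmcKO the difference from WT was -0.72 (95% interval -1.10 to -0.34), which did not pass the threshold (adjusted p = 0.108, unadjusted p = 0.00112, by limma). It passed without AmcKO replicate 5, the highest of its group (-0.89, adjusted p = 0.0259 by limma). It did not pass without any other library of AmcKO or WT (adjusted p 0.153 to 0.335). In pools of 20 oocytes, fewer oocytes that carry a transcript and less of it in each cannot be told apart, and RNA per oocyte was not measured.

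Nlrp5, whose protein anchors the complex, had values of 227, 187 and 158 FPKM in WT and 110.5, 149 and 94.4 FPKM in MUT. Its values were 86.9, 149 and 197 FPKM in GcKO and 158, 137 and 156 FPKM in AmcKO. The MUT libraries lay below the WT libraries, GcKO spread across them, and AmcKO lay just under the lowest WT value. None of these differences passed the threshold, at -0.70 in MUT (95% interval -1.26 to -0.14, adjusted p = 0.0722 by limma), -0.46 in GcKO (-1.02 to 0.09, adjusted p = 0.231) and -0.33 in AmcKO (-0.89 to 0.22, adjusted p = 0.549). In a fit of MUT and WT alone Nlrp5 passed it (adjusted p = 0.0342 by limma). It also did so after a correction for transcript length (-0.91, adjusted p = 0.0333), which was added after seeing the data. In MUT it was not called under quantile (-0.16, adjusted p = 0.685 by limma) or cyclic loess normalization (-0.13, adjusted p = 0.737). Under the same FPKM sum its direction turned (0.29, adjusted p = 0.279).

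Tle6, which encodes a co-repressor-like protein of the core, had values of 57.9, 75.5 and 75.1 FPKM in WT and 60.3, 92.1 and 63.9 FPKM in MUT. Its values were 64.0, 96.8 and 78.1 FPKM in GcKO and 59.2, 48.5 and 72.9 FPKM in AmcKO. All groups overlapped, and the log2 fold changes against WT were 0.04 in MUT (95% interval -0.43 to 0.51), 0.18 in GcKO (-0.29 to 0.66) and -0.21 in AmcKO (-0.68 to 0.26).

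Khdc3, whose KH-domain protein joins the core and is known for its part in keeping the chromosomes of the embryo intact, was lower in the same groups as Ooep in the deposited FPKM. Its values were 736, 741 and 668 FPKM in WT and 278, 432 and 342 FPKM in MUT. They were 245, 439 and 411 FPKM in GcKO and 387, 712 and 811 FPKM in AmcKO. No MUT or GcKO library reached the lowest WT library, whereas AmcKO held both a low library and the highest of all 12. The level was 2.07-fold lower in MUT (log2 fold change -1.05, SE 0.27, adjusted p = 0.0158 by limma) and 2.02-fold lower in GcKO (-1.01, SE 0.27, adjusted p = 0.0183), and it differed by -0.24 in AmcKO (95% interval -0.82 to 0.35, adjusted p = 0.703). Without MUT replicate 1 or MUT replicate 3 the adjusted p of Khdc3 in MUT was 0.0674 and 0.0503, and without GcKO replicate 1 it was 0.0894 in GcKO, so these calls depended on single libraries. They were also lost when the libraries were scaled otherwise, at -0.05 in MUT and 0.03 in GcKO under the same FPKM sum, -0.14 and -0.06 under quantile normalization and -0.19 and -0.11 under cyclic loess.

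Among the associated genes, Padi6 encodes a peptidylarginine deiminase family protein that the oocyte needs to form its cytoplasmic lattices. Its values were 144, 177 and 178 FPKM in WT and 137, 195 and 133 FPKM in MUT. They were 219, 200 and 208 FPKM in GcKO and 152, 153 and 153 FPKM in AmcKO. The GcKO libraries lay above all WT libraries, but the log2 fold change of 0.33 (95% interval -0.02 to 0.68) did not pass the threshold (adjusted p = 0.169 by limma). In MUT and AmcKO the log2 fold changes were both -0.12, with 95% intervals of -0.47 to 0.23.

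Nlrp2, a relative of Nlrp5, had values of 43.3, 47.9 and 45.9 FPKM in WT and 51.1, 55.2 and 43.3 FPKM in MUT. Its values were 52.5, 74.2 and 83.6 FPKM in GcKO and 49.5, 33.5 and 50.6 FPKM in AmcKO. GcKO again lay above all WT libraries, with a log2 fold change of 0.58 (95% interval 0.14 to 1.03, adjusted p = 0.0634 by limma). Without GcKO replicate 1 the difference passed the threshold (0.77, adjusted p = 0.0253). It did not pass without any other library of GcKO or WT (adjusted p 0.0972 to 0.183 by limma). In MUT and AmcKO the log2 fold changes were 0.12 (-0.33 to 0.56) and -0.06 (-0.50 to 0.39).

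Zbed3, a zinc finger gene known for its part in placing mitochondria and lattices in the oocyte, had values of 2918, 3140 and 1972 FPKM in WT and 2374, 3598 and 2750 FPKM in MUT. Its values were 2203, 3051 and 2112 FPKM in GcKO and 2632, 1774 and 2844 FPKM in AmcKO. These ranges overlapped in every group, and the log2 fold changes against WT lay between -0.15 in AmcKO and 0.13 in MUT, with 95% intervals that reached no further than -0.66 and 0.64.

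In the whole comparison of MUT with WT, 2 of the 7 genes fell and 0 rose, where 11.3% of all genes tested were called lower and 9.46% higher by limma. In GcKO against WT, 2 fell and 0 rose, against 11.4% and 8.71% of all genes. In AmcKO against WT, 0 of the 7 were called by limma, against 0.116% lower and 0.0979% higher. At an unadjusted p under 0.05 by limma only Ooep passed, beside 1754 of all 11233 genes tested in both directions together. The median log2 fold change of the 7 genes was -0.12 in MUT, -0.12 in GcKO and -0.21 in AmcKO, beside 0.12, 0.12 and 0.03 over all genes tested. Counted by ranges, 3 genes (Ooep, Khdc3 and Nlrp5) lay wholly below WT in MUT and 0 above, against 16.9% and 20.2% of all genes. In GcKO 2 lay below (Ooep and Khdc3) and 2 above (Padi6 and Nlrp2), against 16.0% and 18.2% of all genes, and in AmcKO 2 lay below (Ooep and Nlrp5) and 0 above, against 8.61% and 9.22%. The 3 comparisons share their WT libraries and are not independent of each other.

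**Figure D2:**
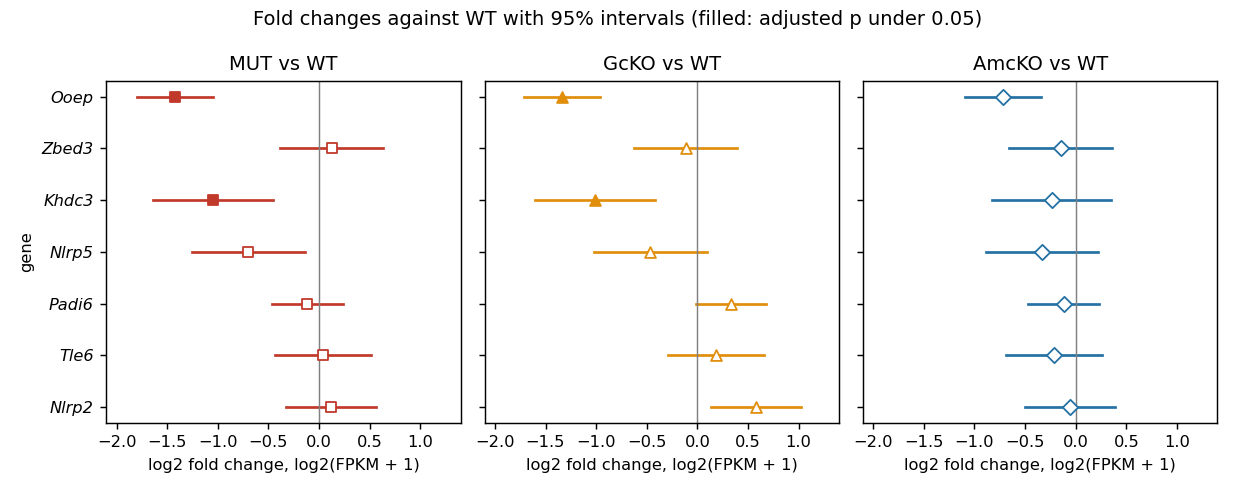
Log2 fold changes against WT on the log2(FPKM + 1) scale (horizontal axis) of the 7 genes in MUT, GcKO and AmcKO, with 95% intervals from limma; filled symbols passed an adjusted p of 0.05. Ooep and Khdc3 are the filled genes in MUT and GcKO, and no gene is filled in AmcKO.

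The groups with altered Dpagt1 were also compared directly, without WT. Between GcKO and MUT 0 of the 7 genes were called by limma, where 0.134% of all genes were called lower and 0.0712% higher. At an unadjusted p under 0.05, 0 were lower and 2, Padi6 and Nlrp2, were higher in GcKO. Of all 11233 genes tested, 741 reached this p in both directions together. Ooep differed by 0.08 (95% interval -0.29 to 0.46) and Khdc3 by 0.04 (-0.55 to 0.63) between these 2 groups. Ooep was lower in MUT than in AmcKO (-0.70, SE 0.18, adjusted p = 0.0278 by limma), the 1 gene of the 7 to be called there, against 5.07% of all genes called lower and 1.42% higher. This call was kept only without AmcKO replicate 6 (adjusted p = 0.0240) and lost without any other library of the 2 groups (0.0579 to 0.107). In GcKO against AmcKO 0 genes were called by limma, against 4.79% and 0.668% of all genes, and Ooep missed the threshold with -0.62 (95% interval -1.0 to -0.24, adjusted p = 0.0564), which it passed without GcKO replicate 3 (adjusted p = 0.0171) or AmcKO replicate 6 (0.0441). Khdc3 differed by -0.81 in MUT (95% interval -1.40 to -0.22, adjusted p = 0.0992) and by -0.78 in GcKO (-1.37 to -0.19, adjusted p = 0.128) from AmcKO. At an unadjusted p under 0.05, Ooep and Khdc3 were lower and Nlrp2 and Padi6 higher in GcKO than in AmcKO, beside 2163 of all 11233 genes. Under the same FPKM sum 4 of the 7 genes were called higher in GcKO and 4 in MUT than in AmcKO, against 22.2% and 21.4% of all genes, and 0 lower by limma, against 1.14% and 1.47%. Under quantile normalization 2 were higher in GcKO and 1 in MUT, against 0.792% and 1.87%, and under cyclic loess also 2 and 1, against 0.712% and 1.75%. Both called 0 lower by limma, against 1.43% and 2.81% of all genes under quantile normalization and 1.30% and 2.80% under cyclic loess, and both turned Ooep above AmcKO, by 0.29 and 0.32 in GcKO and 0.21 and 0.20 in MUT on the log2 scale. At an unadjusted p under 0.05 these 3 scalings also left 0 lower by limma in either comparison. Of all 11233 genes, 4440, 1769 and 1734 reached this p in GcKO and 4329, 2045 and 2005 in MUT, in both directions together. In the deposited FPKM without AmcKO replicate 4, which had the lowest Khdc3 of its group, Khdc3 passed the threshold. Its adjusted p against AmcKO by limma was then 0.0247 in MUT and 0.0346 in GcKO. Without any other library of the groups compared it was 0.110 to 0.291 in MUT and 0.118 to 0.431 in GcKO.

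Because total FPKM differed between the groups by about as much as Ooep and Khdc3 did, the genes were also compared within each library, where a factor common to the library drops out. Summed over the 7 genes, FPKM was 10366 ± 81.7 in WT, 6073 ± 693 in MUT, 5912 ± 689 in GcKO and 7462 ± 411 in AmcKO (SD, n = 3). As a part of all FPKM in the library, the same sum was 0.860 ± 0.0264% in WT, 1.01 ± 0.109% in MUT, 1.01 ± 0.0869% in GcKO and 0.761 ± 0.0721% in AmcKO. The direction of this difference depended on what the sum was set against, since as a part of the FPKM of all genes other than the 100 highest it was 2.14% in WT, 1.93% in MUT, 1.94% in GcKO and 1.81% in AmcKO. The make-up of the sum, which needs no such total, differed between the groups. Ooep made up 60.5, 57.9 and 69.9% of the 7-gene sum in WT and 45.4, 33.9 and 41.5% in MUT. It made up 44.0, 37.5 and 50.1% in GcKO and 51.3, 63.7 and 45.2% in AmcKO. Zbed3 made up 28.0, 30.2 and 19.2% in WT, 43.1, 52.6 and 46.9% in MUT, 43.0, 47.6 and 34.1% in GcKO and 37.3, 22.5 and 38.1% in AmcKO. Ooep thus led in all WT and AmcKO libraries, whereas Zbed3 led in 2 MUT and 1 GcKO libraries.

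**Figure D3:**
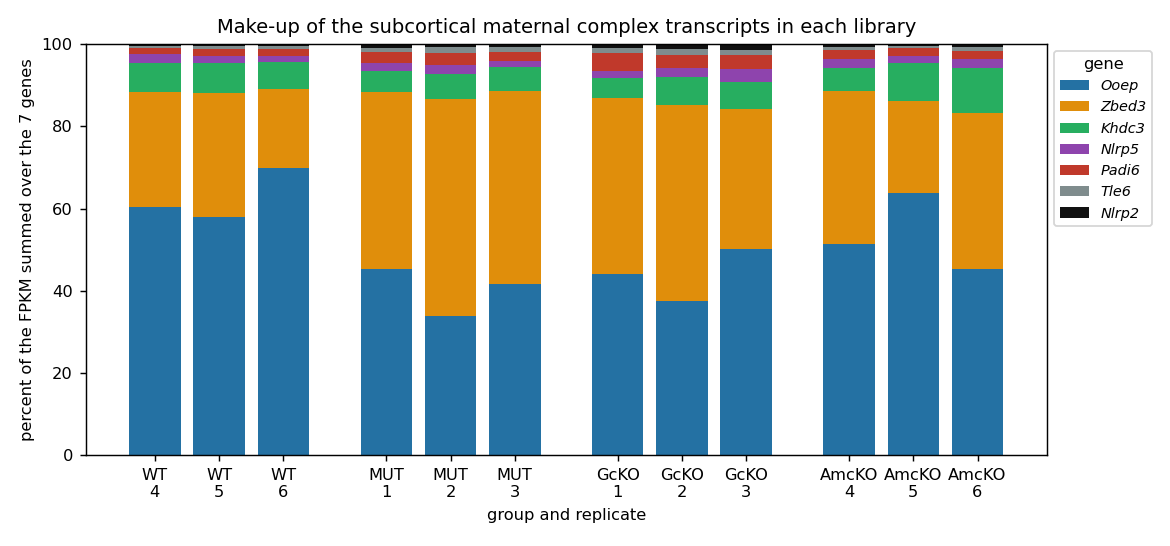
Make-up of the complex's transcripts: each bar is a library, and its segments are the percent of the FPKM summed over the 7 genes (vertical axis) that each gene contributed. Ooep takes 57.9 to 69.9% in WT and 33.9 to 50.1% in MUT and GcKO, and Zbed3 takes most of the difference.

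The ratio of Ooep to Zbed3 FPKM was 2.16, 1.91 and 3.64 in WT and 1.05, 0.646 and 0.885 in MUT. It was 1.02, 0.789 and 1.47 in GcKO and 1.37, 2.83 and 1.18 in AmcKO. MUT and GcKO did not overlap WT, and the exact two-sided permutation test gave p = 0.1 for each, the smallest that 3 libraries against 3 allow, and p = 0.3 for AmcKO. Khdc3 stood at 3.75 to 5.12 times the Padi6 level in WT, at 2.03 to 2.57 times in MUT, at 1.12 to 2.2 times in GcKO and at 2.55 to 5.30 times in AmcKO. It gave exact permutation p = 0.1, 0.1 and 0.9 in the same order. Both ratios were chosen after the values had been seen, and adjustment over 12 such tests could not bring any p under the threshold.

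The same shift was seen across the set when each gene was set against the mean log2(FPKM + 1) of the 7 genes in its library. Relative to that mean, Ooep was 0.99 lower in MUT and 1.08 lower in GcKO than in WT on the log2 scale, and Khdc3 was 0.62 and 0.75 lower. All 3 values of both genes lay below WT in MUT and in GcKO, where 8.04% and 11.2% of all genes tested lay below by the same measure. Tle6 was higher than in WT by 0.47 in MUT and 0.45 in GcKO, Nlrp2 by 0.55 and 0.84, and Padi6 by 0.31 and 0.59, with no overlap. Zbed3 was higher by 0.56 in MUT, also without overlap, and by 0.15 in GcKO with overlap. A place above WT was common, at 41.1% of all genes in MUT and 31.8% in GcKO. Nlrp5 overlapped WT in every group, and in AmcKO all 7 genes did. These values sum to 0 over the 7 genes in a library, so that a fall of some requires a rise of others.

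**Figure D4:**
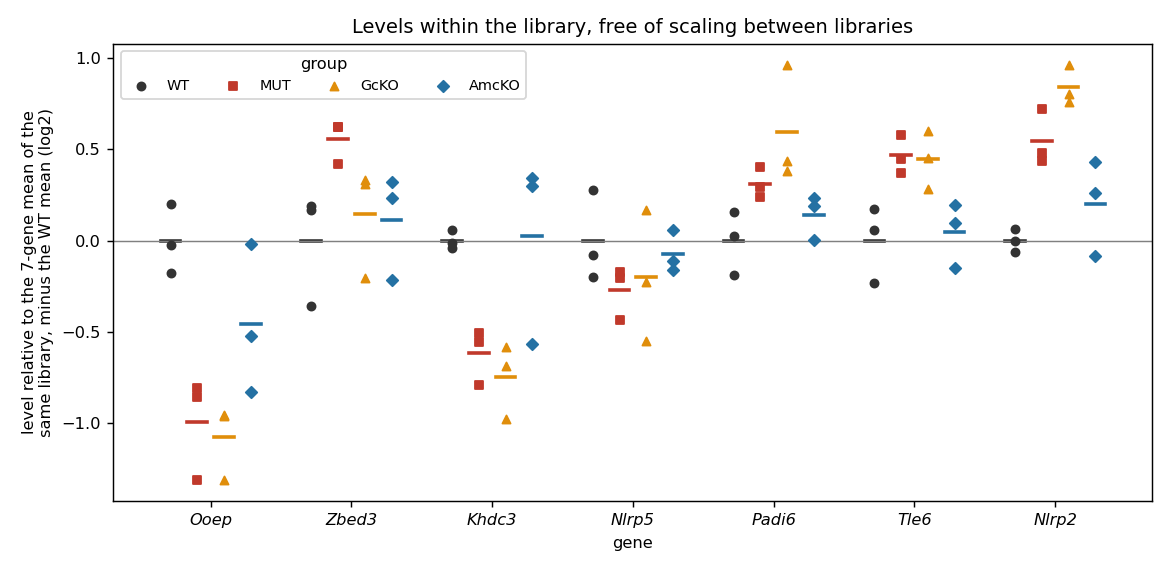
Level of each gene relative to the mean of the 7 genes in the same library, minus the WT mean (vertical axis, log2). Points are libraries and bars group means of 3; Ooep and Khdc3 lie below WT in MUT and GcKO, and Padi6, Tle6 and Nlrp2 above it.

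Ooep took up 0.515 to 0.586% of all FPKM in the WT libraries and less in all others, with 0.380 to 0.413% for MUT, 0.393 to 0.468% for GcKO and 0.374 to 0.453% for AmcKO. Only 3.53%, 2.85% and 3.45% of all genes tested had 3 values below WT on this measure in MUT, GcKO and AmcKO. Khdc3, with 0.0545 to 0.0635% in WT, 0.0455 to 0.0707% for MUT and 0.0508 to 0.0717% for GcKO, overlapped. Zbed3 held 0.161 to 0.269% in WT, 0.388 to 0.588% for MUT and 0.309 to 0.498% for GcKO. Nlrp2, Padi6 and Tle6 also lay above WT in MUT and GcKO on this measure, as did 49.6% and 48.2% of all genes. Ooep was the gene of the complex whose part of the library was smaller in every library outside WT.

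Which of the 7 genes were called changed with the scaling between libraries. When every library was given an equal FPKM sum, Ooep was still lower in MUT (-0.42, adjusted p = 0.00274 by limma) and in GcKO (-0.30, adjusted p = 0.0188), Khdc3 was not called, and 4 genes in MUT and 5 in GcKO were called higher. This scaling moved the median of all genes to 0.70 in MUT and 0.73 in GcKO, and called 2.23% of genes lower and 41.3% higher in MUT and 2.14% and 42.5% in GcKO. After quantile normalization 0 of the 7 genes were called lower by limma, against 6.41% of all genes in MUT and 5.92% in GcKO, and 1 in MUT and 3 in GcKO were called higher, against 6.70% and 6.15%. At an unadjusted p under 0.05 also 0 were lower in either group by limma, with quantile or cyclic loess normalization. Of all 11233 genes, 3183 and 3179 reached this p in MUT and 3028 and 3007 in GcKO, in both directions together. Cyclic loess normalization called as many of the 7 genes as quantile normalization did. Zbed3 was higher in MUT (1.36, adjusted p = 0.00728 by limma), and Zbed3, Padi6 and Nlrp2 were higher in GcKO (1.16, 1.00 and 0.94). Cyclic loess called 7.50% of all genes lower and 6.31% higher in MUT, and 7.11% and 5.81% in GcKO. Median-of-ratios scaling left the calls of the 7 genes as with the deposited values. It hardly moved those values (Ooep from -1.422 to -1.429 in MUT and from -1.338 to -1.340 in GcKO), so it is no separate check. Quantile and cyclic loess normalization, unlike the other scalings, do not apply a single factor to a library. Under both, the log2 fold change of Ooep was still below those of Zbed3, Padi6, Tle6 and Nlrp2 in MUT and GcKO. Under cyclic loess it was above that of Khdc3 in both groups (-0.19 and -0.11) and, in MUT, above that of Nlrp5 (-0.13). In MUT Ooep, Tle6 and Zbed3 stood at -0.12, 0.42 and 1.36 under cyclic loess. In the deposited values they stood at -1.42, 0.04 and 0.13.

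**Figure D5:**
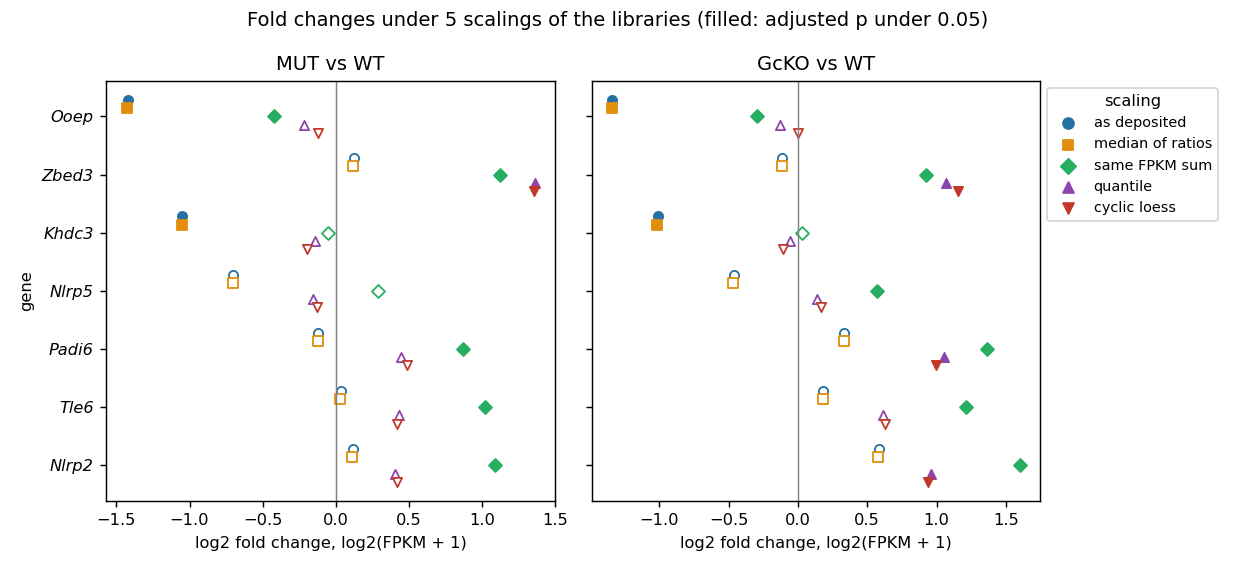
Log2 fold changes against WT (horizontal axis) of the 7 genes in MUT and GcKO under 5 scalings of the libraries; filled symbols passed an adjusted p of 0.05 by limma. Ooep is called lower as deposited, under median of ratios, which hardly moves the values, and under the same FPKM sum. It is near 0 under quantile and cyclic loess normalization, under which Zbed3 is called higher.

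Genes related to the 7 by family and other genes that the oocyte passes on to the embryo were described by counts from lists chosen with earlier results of these data known. Of 11 further Nlrp genes of the oocyte, 10 were tested, and 3 fell in MUT and the same 3 in GcKO, namely Nlrp9c, Nlrp14 and Nlrp9a. Of all genes tested, 11.3% were called lower in MUT and 11.4% in GcKO by limma. Nlrp14, the most abundant, had 4919 ± 652 FPKM in WT, 1939 ± 572 in MUT and 2493 ± 1330 in GcKO (SD, n = 3). Nlrp9c fell from 248 ± 22.1 to 91.3 ± 10.8 FPKM in MUT (-1.43, adjusted p = 0.000527 by limma) and to 113 ± 39.8 in GcKO (-1.19, adjusted p = 0.00181). Nlrp9a fell by 1.03 in MUT and by 0.90 in GcKO on the log2 scale. Without WT replicate 4 or GcKO replicate 1, 1 of the 10 was called lower in GcKO. Of all genes, 1184 of 11092 and 957 of 11134 were called lower in these fits. The median log2 fold change over the 10 genes was -0.63 in MUT and -0.34 in GcKO. Under the same FPKM sum 1 was called lower and 3 higher in MUT and 0 lower and 5 higher in GcKO. That scaling called 2.23% of all genes lower and 41.3% higher in MUT, and 2.14% and 42.5% in GcKO. Under it and under quantile and cyclic loess normalization, Nlrp14 and Nlrp9a were lower in neither group at an unadjusted p under 0.05 by limma. Nlrp9c was lower at this p in MUT under each of these scalings, and in GcKO under quantile and cyclic loess.

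Of 16 relatives of Khdc3, Padi6, Tle6 and Zbed3 by domain, 9 were tested, and 3 fell in both groups, namely Dppa5a, Khdc1b and Zbed5. The share of all genes called lower was 11.3% in MUT and 11.4% in GcKO. Dppa5a, a KH-domain relative of Ooep and Khdc3, went from 3372 ± 381 FPKM in WT to 969 ± 140 in MUT (-1.80, adjusted p = 7.5e-05 by limma) and 1746 ± 277 in GcKO (-0.96, adjusted p = 0.00206). Khdc1b fell by 0.47 in MUT and by 0.84 in GcKO, and Zbed5 by 1.01 and 1.02, all on the log2 scale. Under quantile and cyclic loess normalization the direction turned for Khdc1b in MUT, where it was called higher, and for Dppa5a in GcKO, which was higher at an unadjusted p under 0.05. Under the same FPKM sum, 1 was called lower and 1 higher in MUT and 0 lower and 3 higher in GcKO. The shares of all genes were then 2.23% lower and 41.3% higher in MUT and 2.14% and 42.5% in GcKO.

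The other 30 maternal-effect genes on the list were all tested, and they moved both ways. In MUT 7 fell and 8 rose, and in GcKO 7 fell and 10 rose. Beside this, 11.3% of all genes were called lower and 9.46% higher in MUT, and 11.4% and 8.71% in GcKO. The number that rose in MUT was 3 without MUT replicate 2. It was 4 or 5 without WT replicate 4, WT replicate 5, MUT replicate 1 or MUT replicate 3. In GcKO the number was 5 without GcKO replicate 1. Of all genes, 555 of 11152 rose in MUT without MUT replicate 2. In GcKO 396 of 11134 rose without GcKO replicate 1. The largest falls were those of Dppa3, which protects the maternal genome's methylation in the zygote (27933 ± 1971 FPKM in WT, 8421 ± 431 in MUT and 9872 ± 1966 in GcKO), Npm2, a histone chaperone (-1.53 in MUT and -1.35 in GcKO), and H3f3b, which encodes histone H3.3 (-1.33 and -1.60). The largest rises were those of Trim28, a co-repressor (1.87 and 2.23), Yap1, a transcriptional co-activator (1.69 and 1.26), and Tet3, which oxidises methylated cytosine (1.49 and 1.32). Under the same FPKM sum the split was 3 lower and 19 higher in both groups, and under cyclic loess 2 were lower in each. The same sum called 2.23% of all genes lower and 41.3% higher in MUT, and 2.14% and 42.5% in GcKO. Cyclic loess called 7.50% of all genes lower in MUT and 7.11% in GcKO. Under both quantile and cyclic loess normalization, Npm2 was still lower and Trim28, Yap1 and Tet3 were still higher in both groups at an unadjusted p under 0.05. Dppa3 was then lower only in MUT under quantile normalization, and H3f3b only in GcKO, under both. Of 7 oocyte transcription factors, 6 were tested, and Tbpl2, a TATA-binding protein relative that oocytes use, was the gene that fell in MUT (7.94 ± 3.90 FPKM in WT, 2.65 ± 0.694 in MUT, -1.22, adjusted p = 0.0192 by limma). It was not called without WT replicate 6, MUT replicate 2 or MUT replicate 3. In GcKO 0 of the 6 were called by limma, and 2 were lower (Figla and Tbpl2) and 2 higher (Lhx8 and Nobox) at an unadjusted p under 0.05. This p was reached in GcKO by 3791 of all 11233 genes, in both directions together. Figla, whose product binds E-boxes, differed by -0.38 in MUT and -0.56 in GcKO, and Nobox by 0.28 and 0.44, none of them called. In AmcKO 0 genes of any of these lists were called by limma, against 0.116% of all genes lower and 0.0979% higher. At an unadjusted p under 0.05, 1 Nlrp relative, 1 domain relative and 1 transcription factor were lower in AmcKO, and 4 maternal-effect genes were lower and 6 higher. Of all 11233 genes, 1754 reached this p in AmcKO, in both directions together.

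Profiles over the 12 libraries were compared by the root mean square difference of log2(FPKM + 1) after each gene was centred on its own mean. Closest to the mean profile of the 7 genes among all other genes tested were Lsm2 (0.110), Nubp2 (0.110), Fbxo30 (0.131), Rpa2 (0.133) and Nudc (0.135). Within the complex, Tle6, Padi6 and Nlrp2 had profiles most like each other. Among the 11232 other genes, Padi6 was 19th and Nlrp2 22nd in closeness to Tle6, and Zbed3 was 116th. Ooep and Khdc3 were nearer to each other than to the rest, but Khdc3 was only 997th from Ooep, and Nlrp2 was 5845th. A gene that varies little lies near many others on this measure, so the places describe these libraries and carry no test.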

How the data were processed

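Total RNA of 20 GV-stage oocytes per library was amplified by Smart-seq2. The labels name different library kits in different fields (KAPA Hyper Prep and NEBNext Ultra), and which was used is not settled here. The authors aligned reads of 150 nt to mm10 with TopHat2 2.0.13 and deposited a table of FPKM values from Cufflinks 2.2.1, 1 column per library, for 24255 genes. FPKM is relative to transcript length and mapped fragments. The counts behind it, and hence absolute depth and counting error, are unknown. Only the value of a single fragment relative to MUT replicate 2 could be read, and it was highest in WT. The table's columns of cuffdiff fold changes, p-values and q-values for comparisons between groups were not used.

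Groups and replicate numbers came from the labels, and nothing states that libraries came from separate animals, so p-values measure the spread between libraries. limma 3.58.1 in R 4.3.3 was fitted on log2(FPKM + 1), with a variance trend, to 11233 genes with at least 1 FPKM in at least 1 of the 12 libraries, with 4 groups, 6 contrasts and 8 residual degrees of freedom. The pseudocount of 1 understates changes of low genes. A Benjamini-Hochberg adjusted p under 0.05 was the threshold; the study's own cuffdiff test needs reads, and its fold change over 2 became an alternative. The code was tested on simulated data. Alternatives were a pseudocount of 0.1, no filter, median-of-ratios, same-sum, quantile and cyclic loess scaling, only the groups compared, a replicate block and each library left out; a length correction was added after seeing the data.

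Named genes were the 7 members, Dpagt1, the up to 3 most changed called genes of each list in MUT and in GcKO, counts of 5 or fewer, and the 5 genes closest in profile; Figla and Nobox were added after their values were seen. The members and lists were chosen with earlier results of these data known. Coordinates are from GENCODE M21 and promoters from RefSeq, in which all 7 genes matched. Tables were made in Python 3.11.15 (pandas 2.3.3, numpy 2.4.6), and exact tests were run in scipy 1.17.1.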

Additional observations from a re-analysis of the deposited data

Results flagged for a closer look

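In the deposited FPKM the effect on Ooep differed between groups. It was lower in MUT than in AmcKO by a log2 fold change of -0.70 (adjusted p = 0.0278 by limma), with all 3 MUT libraries (2324 to 2500 FPKM) below all 3 AmcKO libraries (3368 to 5019 FPKM). It passed the threshold in 1 of 6 fits with a library of either group left out, and its adjusted p over these fits was 0.0240 to 0.107. It was not called without the filter on low values or after same-sum scaling (-0.0025), and its direction turned under quantile (0.21) and cyclic loess (0.20) normalization.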

How the results depend on the processing

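The limits are few libraries, no counts behind FPKM, and FPKM sums that differ between groups. Median-of-ratios scaling, which hardly moved the deposited values, and a pseudocount of 0.1 moved no count of members. A fit of the 2 groups compared moved 1 (3 lower in MUT vs WT, with Nlrp5), where 1329 of 10525 genes were called lower. A pseudocount of 0.1 moved no level relative to the members by as much as its SD. Of 7 members, same-sum, quantile and cyclic loess scaling called 1, 0 and 0 lower and 4, 1 and 1 higher in MUT vs WT, and 1, 0 and 0 lower and 5, 3 and 3 higher in GcKO vs WT. Of all genes, these scalings called 2.23%, 6.41% and 7.50% lower and 41.3%, 6.70% and 6.31% higher in MUT vs WT. For GcKO vs WT the shares were 2.14%, 5.92% and 7.11% lower and 42.5%, 6.15% and 5.81% higher. Of the 7 members they called 4, 2 and 2 higher in GcKO vs AmcKO, and 0 lower and 4, 1 and 1 higher in MUT vs AmcKO. The shares of all genes called higher were 22.2%, 0.792% and 0.712% in GcKO vs AmcKO and 21.4%, 1.87% and 1.75% in MUT vs AmcKO. Those called lower in MUT vs AmcKO were 1.47%, 2.81% and 2.80%. In MUT vs AmcKO 0 members were lower without the filter or with a fold change over 2. Of all genes, 482 of 14933 and 278 of 11233 were lower in the same order. The length correction, chosen after seeing the data, called 1 member lower in GcKO vs AmcKO and 3 in MUT vs WT. Of all 11131 genes it called 523 and 1307 lower in the same order. The cause was not tested. Among NLRP relatives the same scalings called 1, 1 and 1 lower and 3, 1 and 1 higher in MUT, and 0, 1 and 1 lower and 5, 2 and 1 higher in GcKO. Among KH, PADI, TLE and ZBED relatives same-sum scaling left 1 lower in MUT and 0 in GcKO, quantile and cyclic loess 1 in GcKO, and 1 rose in MUT under each and 3 in GcKO under same-sum. Of the maternal-effect genes 3, 3 and 2 were lower in MUT and 3, 2 and 2 in GcKO, 19 were higher in each under same-sum, and 1 was higher in AmcKO under same-sum and cyclic loess. Same-sum and cyclic loess called 20 and 18 of all 11233 genes higher in AmcKO vs WT. Of the transcription factors, same-sum gave 0 lower and 4 higher in MUT, each of the 3 gave 2 higher in GcKO, and cyclic loess 1 lower there. Measured against genes other than the 100 highest, the members' share was 2.14% in WT, 1.93% in MUT, 1.94% in GcKO and 1.81% in AmcKO.

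Single log2 fold changes changed sign. In MUT vs WT, Nlrp5 was 0.29 under same-sum, Padi6 was 0.87, 0.44 and 0.49 under same-sum, quantile and cyclic loess, and Nlrp2 was -0.085 after length correction. In GcKO vs WT, in the same order of scalings, Nlrp5 was 0.57, 0.14 and 0.17 and Zbed3 0.92, 1.06 and 1.16, with Ooep at 0.0016 under cyclic loess and Khdc3 at 0.026 under same-sum. In AmcKO vs WT, Padi6 was 0.18, 0.091 and 0.094, Khdc3 0.061, 0.088 and 0.047, Nlrp2 0.23, 0.070 and 0.052 and Zbed3 0.15, 0.23 and 0.23, with Tle6 at 0.080 under same-sum. Ooep was 0.12, 0.29 and 0.32 in GcKO vs AmcKO and 0.21 and 0.20 under quantile and cyclic loess in MUT vs AmcKO.

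With each library left out in turn, 1 to 2 members were lower in MUT vs WT, 1 to 2 lower and 0 to 1 higher in GcKO vs WT, 0 to 1 lower in AmcKO vs WT, 0 to 1 in each direction in GcKO vs AmcKO and 0 to 1 lower in MUT vs AmcKO. Of the 11092 to 11172 genes tested in these fits, 964 to 1139 were lower and 529 to 859 higher in MUT vs WT. In GcKO vs WT 957 to 1352 were lower and 396 to 952 higher. In AmcKO vs WT 8 to 90 were lower, with the 90 without AmcKO replicate 5. In GcKO vs AmcKO 287 to 667 were lower and 26 to 85 higher, and in MUT vs AmcKO 294 to 563 were lower. Ooep stayed called in all 6 such fits in MUT and in GcKO (highest adjusted p 0.00154 and 0.00189 by limma). In GcKO 1 to 4 NLRP relatives were lower, 3 to 6 maternal-effect genes were higher in MUT and 5 to 10 in GcKO, 0 to 1 transcription factors were lower in MUT and in GcKO, and 0 to 1 higher in GcKO. Log2 fold changes that crossed 0 ranged from -0.15 to 0.15 for Tle6 and -0.080 to 0.26 for Zbed3 in MUT vs WT, -0.32 to 0.014 for Zbed3 in GcKO vs WT, -0.44 to 0.089 for Khdc3, -0.16 to 0.13 for Nlrp2 and -0.35 to 0.060 for Zbed3 in AmcKO vs WT, and -0.054 to 0.18 for Ooep and -0.12 to 0.30 for Khdc3 in GcKO vs MUT.

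WT and AmcKO share replicate numbers, as do MUT and GcKO, but same-numbered libraries did not deviate together (r of -0.041 to 0.041), and the labels tie the numbers to nothing. With a replicate block, 0 members were called by limma in either comparison, as without it, and 1 (AmcKO vs WT) and 0 (GcKO vs MUT) had an unadjusted p under 0.05. Of all genes, 1238 of 10335 and 842 of 10371 had such a p in the same order.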
